A study of Homo sapiens with 12 samples.

Results

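The genes CD38, ICAM1, ASB2, PRAM1, HIC1, RARRES1 and PLAAT4 are known to be induced by all-trans retinoic acid (ATRA) in myeloid leukaemia. They were followed through peak lists of H3K4me2, the dimethyl mark on lysine 4 of histone H3, as 7 of the 19951 protein-coding genes whose surroundings were measured in the same way. The genes were chosen by name from what is known of ATRA, and their data are the H3K4me2 peaks that lie in the gene body or within 50 kb of the canonical start site (GRCh38, GENCODE release 44). When overlapping peaks of the lists were merged into regions, 76 of 84577 regions met that rule.

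The cells were U-937, an established human cell line of the monocytic lineage that is used as a model of acute myeloid leukaemia. They were kept for 24 h with the vehicle DMSO, with 0.1 µM ATRA, with 0.1 µM Corin, or with 0.1 µM of each drug together, which is called the combination here. Corin is a single molecule with a pair of targets in the CoREST complex, its demethylase LSD1 and its histone deacetylases. Each treatment had 2 H3K4me2 libraries and 1 input library, 12 libraries in all, and each is represented by 1 deposited peak list made from its libraries. There is therefore 1 value per treatment, the spread between replicates cannot be measured from the lists, and no test between treatments was made.

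ATRA is a ligand of the retinoic acid receptors, which sit on DNA as partners of the retinoid X receptors and bring co-repressors or co-activators to their target genes. In myeloid leukaemia cells ATRA drives maturation along with a set of genes that includes the 7 described here. H3K4me2 marks active and primed start sites and enhancers, and LSD1 within CoREST removes methyl groups from that lysine.

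Peaks numbered 65172 in DMSO, 66385 in ATRA, 73997 in Corin and 83969 in the combination. The number of reads per library was not analysed here. The depth of H3K4me2 sequencing was estimated from the peaks' own fold and p-value. It came to 1.01 times that of DMSO in ATRA, 1.10 times in Corin and 1.20 times in the combination. The estimate takes fragments as equally long in all lists, which was not checked. Longer lists and a greater estimated depth therefore move with the drugs, and their part in the results was not tested. Of the 7 start-site lengths below, only that of ASB2 has the same order of lists, from DMSO through ATRA and Corin to the combination. The combination has the most peaks and the greatest estimated depth, and it also has the greatest start-site length at each gene but HIC1. Drug, list length and depth change together, so these orders cannot tell them apart. As a check of the cell type, 7 of 8 myeloid and monocytic marker genes had a peak within 1 kb of the start site in every list, the exception being MPO, while 0 of 3 T cell markers did. So did 1 of 3 erythroid markers (KLF1) and 0 of 3 epithelial markers.

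H3K4me2 peaks at the start sites of CD38, PLAAT4 and HIC1 covered more DNA in the ATRA list than in the DMSO list, by 2.43-fold, 3.66-fold and 1.71-fold. The measure is the number of bases under peaks within 5 kb on either side of the canonical start site. Those 3 of 7 genes reached a 1.5-fold longer length with ATRA, beside 3.95% of the 13483 genes for which the ratio could be taken. With Corin, 2 of 7 did so (PLAAT4 at 2.26-fold and CD38 at 1.65-fold), beside 11.7% of all genes. In the combination 4 of 7 did so, PLAAT4 at 6.23-fold, CD38 at 3.33-fold, ASB2 at 1.84-fold and HIC1 at 1.67-fold, beside 20.2%. The median ratio of the 7 genes was 1.11 with ATRA, 1.06 with Corin and 1.67 in the combination, while that of all genes was 1.05, 1.17 and 1.22. No gene of the 7 reached the same fold in the shorter direction in any of these comparisons. These comparisons share the DMSO list, so they are not independent of each other.

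**Figure D1:**
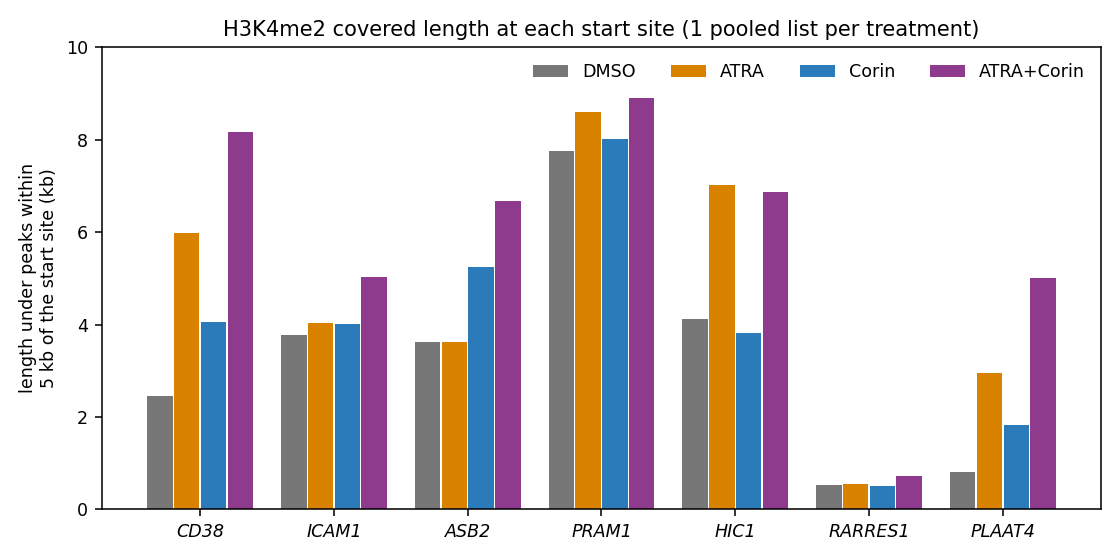
Bars give the length under H3K4me2 peaks within 5 kb of each canonical start site (kb, from 0), 1 bar for each pooled list of DMSO, ATRA, Corin and ATRA with Corin, with no error because there is 1 list per treatment. CD38 and PLAAT4 are longest in the combination (8163 and 5012 bases), HIC1 is long in both lists with ATRA, and RARRES1 stays at or under 712 bases.

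Set against the single drugs, the combination was at least 1.5-fold longer than ATRA alone at 2 of 7 start sites, ASB2 with 1.84-fold and PLAAT4 with 1.70-fold, beside 12.3% of all genes. Against Corin alone it was so at 3 of 7, PLAAT4 with 2.75-fold, CD38 with 2.02-fold and HIC1 with 1.80-fold, beside 4.63%. These ratios reuse the combination list of the previous comparison.

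**Figure D2:**
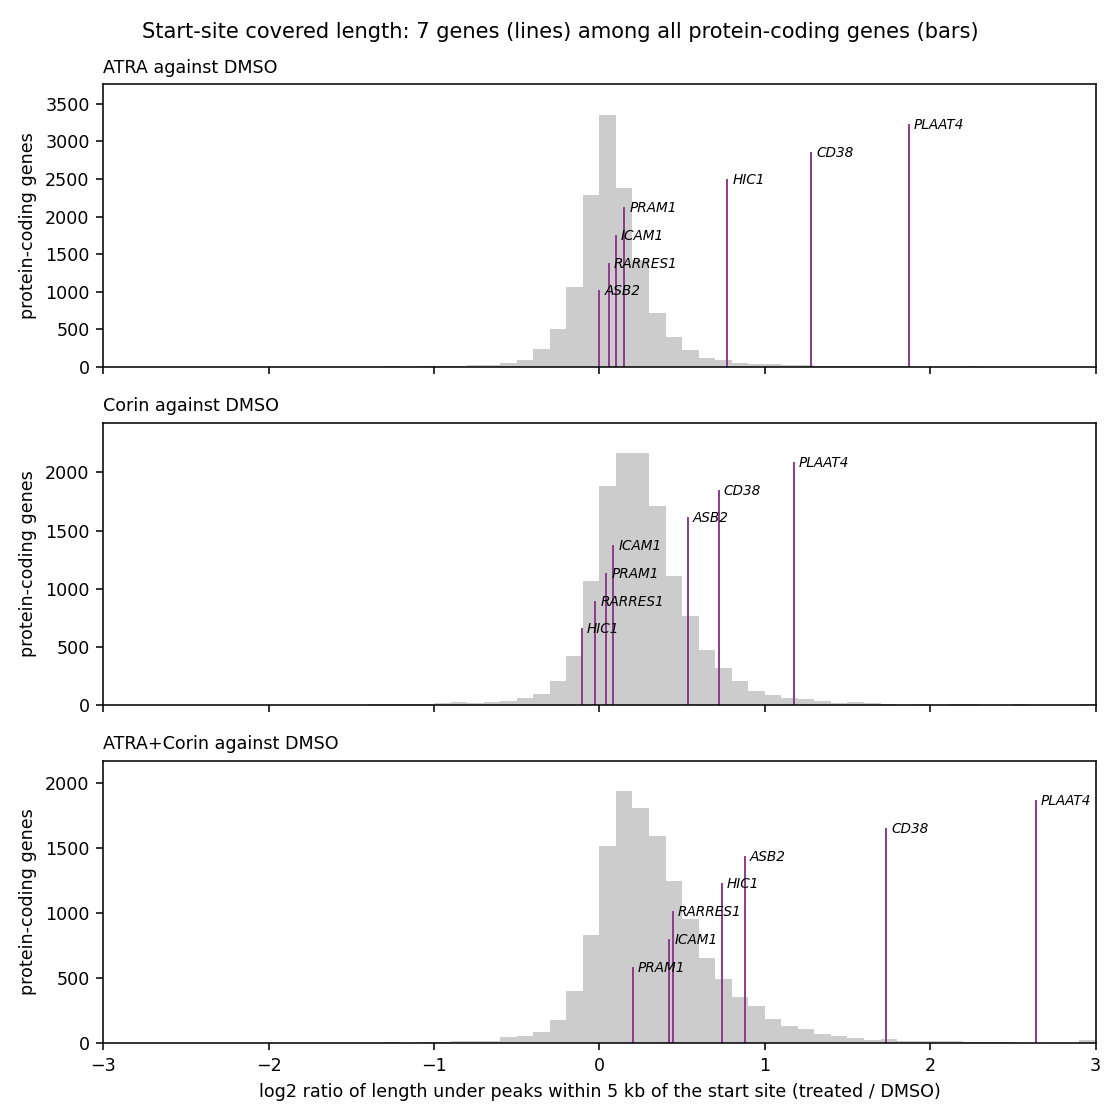
Grey bars count protein-coding genes by the log2 ratio of start-site covered length (treated over DMSO; x axis), and each vertical line, whose height carries no value, marks 1 of the 7 genes, for ATRA, Corin and the combination from top to bottom. PLAAT4 lies farthest to the right in each panel, at ratios of 3.66, 2.26 and 6.23, and ASB2 lies at 0 on the log2 axis with ATRA and at a ratio of 1.84 in the combination.

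CD38, the surface enzyme that turns NAD into ADP-ribose and cyclic ADP-ribose, lies at chr4:15778275-15853232 on the plus strand and starts at position 15778328. The 197 bases before its outermost annotated start are shown because they lay under the start-site peak in all 4 lists although they are poor in CpG; CpG dinucleotides are in capitals, and the sequence is RefSeq's (GRCh38.p14, chr4:15778078-15778274):
CD38 promoter: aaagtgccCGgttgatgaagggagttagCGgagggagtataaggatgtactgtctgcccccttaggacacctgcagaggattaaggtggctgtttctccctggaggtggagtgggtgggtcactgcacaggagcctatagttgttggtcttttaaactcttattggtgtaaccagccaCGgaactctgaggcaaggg
Covered length near the CD38 start was 2453 bases in DMSO, 5972 in ATRA, 4045 in Corin and 8163 in the combination. The length was thus greatest with both drugs, and ATRA alone gave more than Corin alone. Of all genes, 0.838% had a ratio at least as high as CD38 with ATRA, 6.70% with Corin and 1.28% in the combination.

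The peak over the CD38 start also lay differently in the lists with and without ATRA. In DMSO and in Corin it reached 2035 and 2142 bases downstream, with its summit 430 and 435 bases downstream. In ATRA and in the combination it ended 800 and 803 bases downstream, and its summit lay 194 and 201 bases upstream of the start. The whole region was called as 1 peak in DMSO, 5 in ATRA, 4 in Corin and 2 in the combination. The next peak downstream was parted from the one over the start by a gap of 133 bases in ATRA (chr4:15779129-15779261, from 801 to 933 bases into the gene, in an intron) and of 113 bases in the combination (from 804 to 916 bases). That next peak had its summit 2561 and 2604 bases downstream, at enrichments over input of 18.2-fold and 17.9-fold. Corin had a separate peak with its summit 2560 bases downstream, at 5.63-fold. The sequence of the ATRA gap, which held 0 half-sites of the retinoid receptors on either strand (letters below), is given so that its place can be found:
CD38 gap: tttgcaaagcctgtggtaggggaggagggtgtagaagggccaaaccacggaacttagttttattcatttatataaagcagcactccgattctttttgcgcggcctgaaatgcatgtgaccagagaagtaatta
The longer domains had summits with fewer fragments. The authors' enrichment over input at the start-site summit was 40.4-fold in DMSO, 24.6-fold in ATRA, 25.9-fold in Corin and 14.6-fold in the combination. Enrichments and the authors' −log10 q (the strength of a peak after correction for multiple tests) belong to their own list, and here and below they are set side by side without a comparison of lists. The fragments recovered at that summit numbered 213 (95% exact Poisson interval 185 to 244) in DMSO, 107 (87.7 to 129) in ATRA, 130 (109 to 154) in Corin and 99 (80.5 to 121) in the combination. The DMSO interval overlapped none of the other 3; intervals cover counting error only, and depth differed as given above. The peak over the start was the strongest of the window by −log10 q in DMSO (171), ATRA (82.9) and Corin (96.1), while in the combination one with its summit 30617 bases downstream was (54.8 against 48.5). The number of regions in the CD38 window was 4 in every list, and all 4 were shared by every list. Peaks in the window numbered 7 in DMSO, 14 in ATRA, 9 in Corin and 6 in the combination. Regions are merged from the peaks of all 4 lists, so a separate peak of 1 list can fall inside a shared region. The equal number of regions therefore does not show that no peak was added. Over the whole window the covered length was 6.92 kb in DMSO, 14.4 kb in ATRA, 10.3 kb in Corin and 17.6 kb in the combination.

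**Figure D3:**
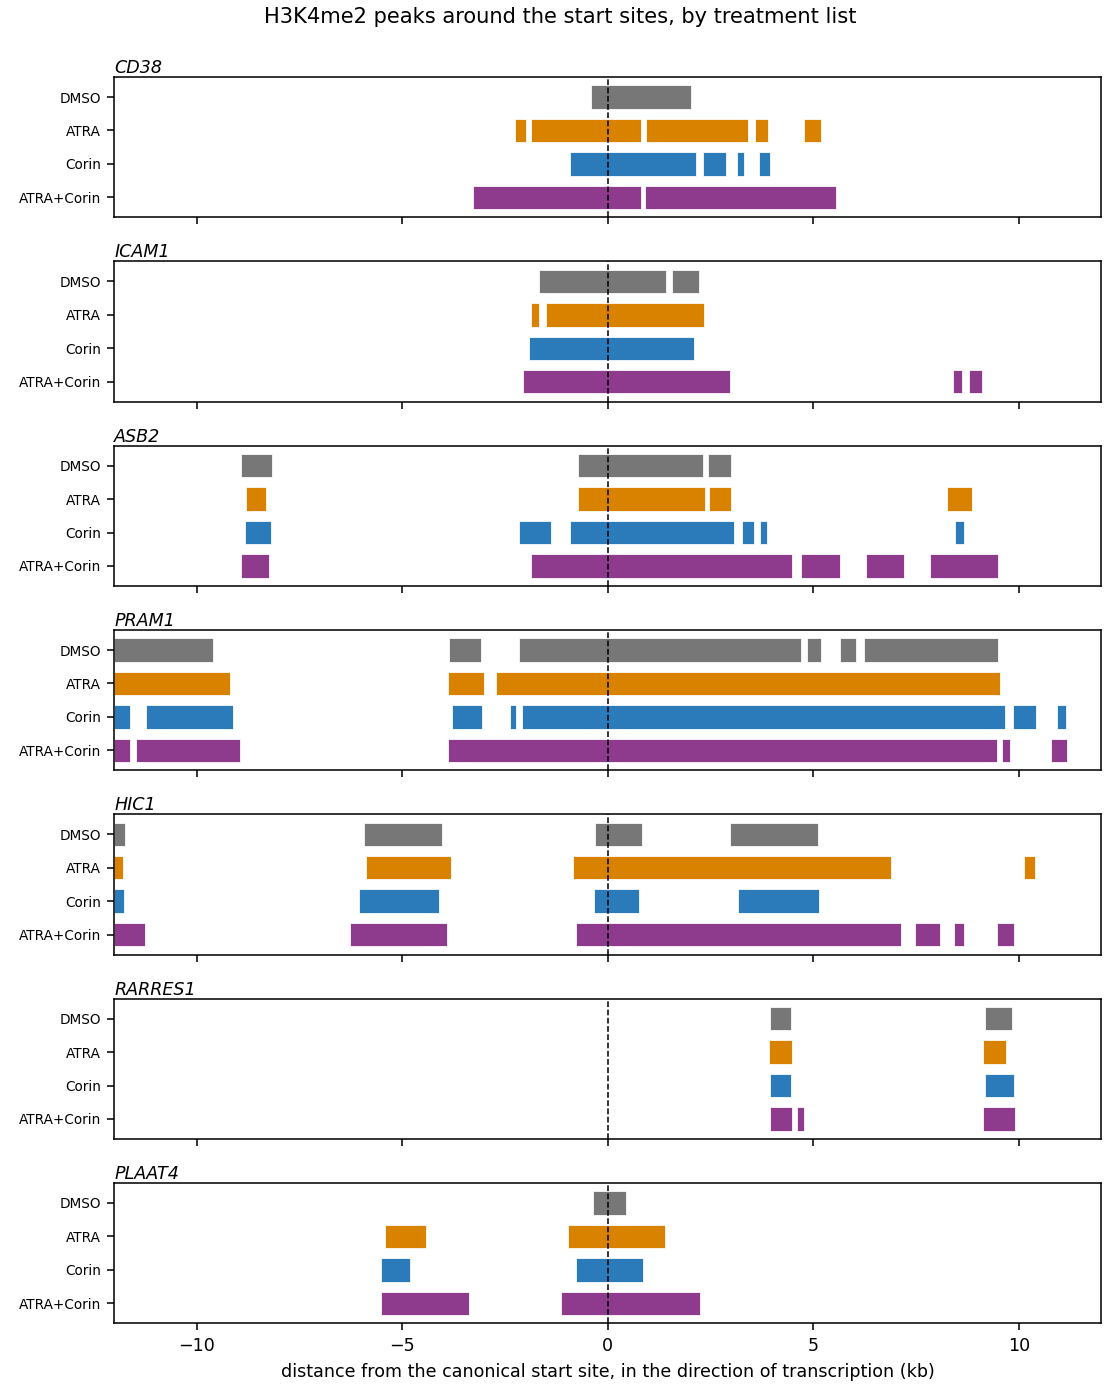
Each bar is 1 deposited H3K4me2 peak, drawn by its distance from the canonical start site (dashed line, kb, in the direction of transcription), in 4 rows per gene for DMSO, ATRA, Corin and ATRA with Corin. The CD38 domain is split 801 to 933 bases past its start in ATRA and 804 to 916 bases past it in the combination, the 2 HIC1 peaks of DMSO are joined in both lists with ATRA, and RARRES1 has no peak over its start.

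ICAM1, the adhesion molecule that binds beta-2 integrins of leukocytes, lies at chr19:10271093-10286615 on the plus strand. Its promoter is CpG-rich, with an observed over expected CpG ratio of 0.767 beside a median of 0.579 over 35116 RefSeq promoters, and 0.195 at CD38. The 223 bases before its outermost start (chr19:10270870-10271092, GRCh38.p14, from RefSeq, CpG in capitals) are shown to set beside those of CD38:
ICAM1 promoter: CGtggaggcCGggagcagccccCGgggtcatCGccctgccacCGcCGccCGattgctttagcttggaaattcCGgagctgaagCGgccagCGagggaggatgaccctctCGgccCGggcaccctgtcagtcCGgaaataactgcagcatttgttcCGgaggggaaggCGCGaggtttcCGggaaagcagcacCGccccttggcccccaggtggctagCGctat
Covered length near the ICAM1 start was 3768 bases in DMSO, 4027 in ATRA, 4007 in Corin and 5037 in the combination, a ratio to DMSO of 1.07 with ATRA and 1.34 in the combination. At 1.07, 42.9% of all genes had a ratio as high with ATRA, so the length near ICAM1 differed little. Its summit stayed between 911 and 934 bases upstream of the start in the 4 lists. The enrichment at that summit was 33.8-fold in DMSO, 82.8-fold in ATRA, 47.3-fold in Corin and 54.8-fold in the combination. By −log10 q the start-site peak was the strongest in the window in ATRA (413), Corin (233) and the combination (262). In DMSO a peak 39897 bases upstream was stronger (214 against 199). The fragments recovered at the ICAM1 summit were 275 (243 to 309) in DMSO and 364 (328 to 403) in ATRA, intervals that did not overlap. They were 258 (227 to 291) in Corin and 314 (280 to 351) in the combination, both of which overlapped DMSO. Scaled to the depth of DMSO by that estimate they were 360 in ATRA, 235 in Corin and 262 in the combination. Corin and the combination then lay below DMSO. Over all peaks the median number at the summit was 40 in DMSO and 47 in ATRA, and neighbours in the window were also higher in ATRA. The peak at the start of MRPL4 had 187 fragments in DMSO and 301 in ATRA, and the one at the start of ICAM4 had 240 and 331.

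Within the ICAM1 window 9, 10, 10 and 12 regions were present in DMSO, ATRA, Corin and the combination, and 6 of the 12 lay at the start of another gene. A region outside the gene, chr19:10299909-10300489, was present in each drug list and not in DMSO, with −log10 q of 12.5 in ATRA, 5.24 in Corin and 14.4 in the combination. The other 2 regions gained in the combination were weak intronic ones, with −log10 q of 2.02 and 3.66.

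ASB2, the substrate-binding subunit of a cullin ubiquitin ligase that takes filamins to the proteasome, lies at chr14:93934166-93976739 on the minus strand. Covered length near its canonical start was 3619 bases in DMSO, 3620 in ATRA, 5252 in Corin and 6666 in the combination. In ATRA it was thus longer by a single base, Corin gave a ratio of 1.45, and the combination gave 1.84, which 8.60% of all genes reached. The start-site peak itself measured 3064, 3089, 3986 and 6359 bases in the same order, and its summit stayed between 1436 and 1485 bases downstream. Its enrichment was 19.0-fold in DMSO, 26.4-fold in ATRA, 14.9-fold in Corin and 28.8-fold in the combination. A second annotated ASB2 start, 19149 bases downstream at position 93957421, lay outside the nearest peak by 297 bases in DMSO and 320 bases in ATRA, and under a peak in Corin and in the combination. Around this second start the covered length was 4979, 5831, 6189 and 6442 bases in DMSO, ATRA, Corin and the combination, so it was longer than at the canonical start in each list but the last.

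ASB2 had 9 regions in its window in DMSO, 10 in ATRA, 11 in Corin and 15 in the combination. The strongest peak of the window lay in the gene 21008 bases downstream of the start in DMSO (−log10 q of 105), next to the start of OTUB2 in ATRA (165), and over the ASB2 start in Corin (83.3) and in the combination (161). The 7 regions gained in the combination against DMSO included 2 intronic ones with −log10 q of 17.6. The first, chr14:93967072-93968720, was also present in ATRA (6.51) and Corin (3.19), while chr14:93970930-93971876 was present in the combination list only. A region 49076 bases upstream, at the start of OTUB2, was present in ATRA (16.3) and in the combination (8.45) and in neither of the other two lists. A region 25098 bases upstream was present in DMSO only, with −log10 q of 4.03.

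PRAM1, an adaptor protein of myeloid cells named as a target of the PML-RARA fusion, lies at chr19:8490056-8502640 on the minus strand. PRAM1 had the longest covered length of the 7 genes in DMSO, 7757 bases within 5 kb of the start, and 8599 in ATRA, 8008 in Corin and 8897 in the combination. These are ratios of 1.11 with ATRA and 1.15 in the combination, over an interval that was mostly covered in the DMSO list. The start-site peak itself measured 6847 bases in DMSO, 12251 in ATRA, 11750 in Corin and 13364 in the combination, since separate DMSO peaks farther into the gene were joined to it in each drug list. Its summit lay 647 bases downstream of the start in DMSO and between 2695 and 2788 bases in the drug lists. The enrichment over input was 37.1-fold in DMSO, 42.2-fold in ATRA, 33.7-fold in Corin and 37.8-fold in the combination. Regions in the PRAM1 window numbered 5, 6, 7 and 7 in DMSO, ATRA, Corin and the combination, and the gained and lost ones had −log10 q of at most 5.57.

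HIC1, a zinc-finger transcriptional repressor, lies at chr17:2054154-2063241 on the plus strand and starts at position 2055103. Covered length near its start was 4121 bases in DMSO, 7030 in ATRA, 3824 in Corin and 6869 in the combination. Both lists with ATRA were long and both lists without it were short, and the combination was no longer than ATRA alone. The ratio with ATRA, 1.71, was reached by 2.37% of all genes, and the ratio of the combination to Corin, 1.80, by 2.24%. In DMSO a peak of 1123 bases lay over the start (chr17:2054804-2055926) and another farther into the gene (chr17:2058082-2060221). Corin also had a pair of peaks there. In ATRA and in the combination a single peak of 7744 and 7921 bases spanned both, with its summit at 3755 and 3757 bases downstream, in the second of the DMSO peaks. A second annotated HIC1 start, 1207 bases downstream, lay under a peak only in those 2 lists. The enrichment at the summit of the peak over the start was 46.5-fold in DMSO, 20.3-fold in ATRA, 22.1-fold in Corin and 19.5-fold in the combination, the summits being at different places as given.

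The 7 windows were also searched for the kind of sequence repeat to which retinoic acid receptors bind, and the matches are described here because HIC1 held most of the widely spaced ones. The search took 2 half-sites in the same orientation, each either AGGTCA or AGTTCA or GGGTCA or GGTTCA, separated by 1, 2 or 5 bases, on both strands. Over the 7 windows there were 52 matches, of which 34 had the single form AGGTCAggAGTTCA, which is also part of Alu repeats. Of the 5 matches with a spacing of 5, 4 lay in the HIC1 window and 1 in that of RARRES1. All 4 in the HIC1 window lay inside regions, and they are shown with the half-sites in capitals, each read 5′ to 3′ on its own strand:
HIC1 repeat at chr17:2055420-2055436, plus strand: GGTTCAcggcgGGGTCA
HIC1 repeat at chr17:2071746-2071762, plus strand: GGGTCAcacctGGGTCA
HIC1 repeat at chr17:2083786-2083802, plus strand: AGGTCAaaagaGGGTCA
HIC1 repeat at chr17:2087909-2087925, minus strand: AGGTCAtagtgGGGTCA
The first, 325 bases downstream of the start in an intron, lay under a peak in all 4 lists. The second lay 16651 bases downstream, past the end of HIC1 and inside the body of the neighbouring gene SMG6, in a region (chr17:2071257-2072312) that held a peak in each drug list and none in DMSO. The −log10 q of that region was 5.65 in ATRA, 5.49 in Corin and 5.81 in the combination. The repeat lay 36 bases from the summit in ATRA, 28 bases in the combination and 329 bases in Corin. The other two lay under a peak in Corin only; in the remaining lists the nearest peak was 36 to 257 bases away. The 137 bases around the second repeat (chr17:2071686-2071822, GRCh38) are shown because that region was new in each drug list:
HIC1 downstream region: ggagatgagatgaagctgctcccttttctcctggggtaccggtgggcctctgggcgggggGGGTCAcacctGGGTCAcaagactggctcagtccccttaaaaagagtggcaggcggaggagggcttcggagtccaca
In the genome there were 0.198 matches with a spacing of 5 per 100 kb, and 0.690 in the 7 windows, from 5 matches. The windows were also denser in the other spacings, with 0.828 beside 0.382 for a spacing of 1 and 5.66 beside 3.7 for 2. Of all 52 matches in the windows, 12 lay inside regions. The share of genome matches inside regions was not counted. Of all peaks, 0.109% in DMSO, 0.113% in ATRA, 0.101% in Corin and 0.116% in the combination had a repeat with a spacing of 5 within 150 bases of the summit. A match is a description of letters and not a binding site.

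**Figure D4:**
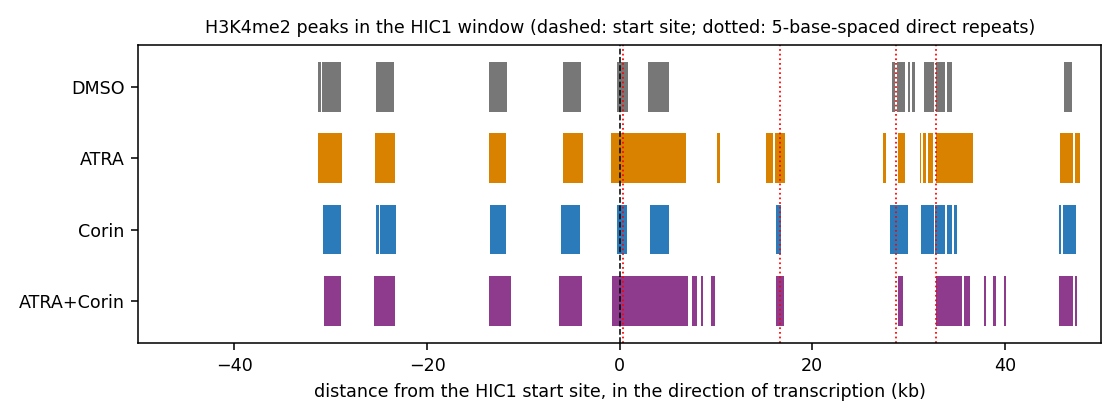
Bars are H3K4me2 peaks within 50 kb of the HIC1 start site (dashed line; x axis in kb, in the direction of transcription) in the DMSO, ATRA, Corin and ATRA with Corin lists, and dotted lines mark the 4 repeats with a spacing of 5. The repeat 16651 bases downstream lies under a peak in the 3 drug lists and not in DMSO.

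Regions in the HIC1 window numbered 10 in DMSO, 13 in ATRA, 10 in Corin and 15 in the combination. The strongest peak of the window in DMSO, ATRA and the combination was the one at the start of RTN4RL1, upstream of HIC1, with −log10 q of 278, 316 and 248, while in Corin it was one 5331 bases upstream of HIC1, with 172. Against DMSO, ATRA had 4 gained and 1 lost, and the combination 7 gained and 2 lost. The strongest region lost in the combination was chr17:2086245-2087770, with −log10 q of 21.8 in DMSO, 5.65 in ATRA and 24.9 in Corin. The gained ones had −log10 q of at most 5.81.

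RARRES1, named as a retinoic acid receptor responder, lies at chr3:158696892-158732489 on the minus strand and was the only one of the 7 genes without a peak over its start. Of all 19951 genes, 47.3% had a peak over the start in DMSO, 48.1% in ATRA, 38% in Corin and 38% in the combination. The peak nearest the RARRES1 start lay 3936 bases away in DMSO, 3933 in ATRA, 3944 in Corin and 3941 in the combination. The RARRES1 promoter had an observed over expected CpG ratio of 0.721, and whether CpG goes with a peak was not tested. The 218 bases before the outermost start (chr3:158732490-158732707, minus strand, GRCh38.p14, from RefSeq, CpG in capitals) are shown to set beside those of CD38 and ICAM1:
RARRES1 promoter: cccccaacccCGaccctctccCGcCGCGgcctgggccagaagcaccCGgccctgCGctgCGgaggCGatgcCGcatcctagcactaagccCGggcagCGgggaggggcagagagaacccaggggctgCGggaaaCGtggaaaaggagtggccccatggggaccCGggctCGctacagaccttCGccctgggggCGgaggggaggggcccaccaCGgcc
Covered length within 5 kb of the start was 522 bases in DMSO, 542 in ATRA, 513 in Corin and 712 in the combination. All of it lay in an intron, and only the combination stood apart, by a small extra peak of 171 bases. The intronic peak nearest the start had −log10 q of 3.73 in DMSO, 17.4 in ATRA, 12.8 in Corin and 16.8 in the combination, and a second one farther into the gene, with its summit 9526 bases downstream in DMSO, had 5.38, 12.1, 10.8 and 19.8. The strongest peak of the window in DMSO lay upstream of the gene, with its summit 15907 bases from the start and −log10 q of 8.09. Regions in the window numbered 4, 5, 4 and 5.

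PLAAT4, a phospholipase and acyltransferase also known as RARRES3, lies at chr11:63536808-63546462 on the plus strand and had the largest start-site ratios of the 7. Covered length near its start was 805 bases in DMSO, 2945 in ATRA, 1821 in Corin and 5012 in the combination. Both drugs gave more than DMSO, and both together more than either. Of all genes, 0.215% had a ratio as high as PLAAT4 with ATRA, 1.67% with Corin and 0.289% in the combination. The peak over the start widened in the same order, from 805 bases to 2354, 1621 and 3382. In DMSO this was a weak peak, with an enrichment of 5.96-fold and −log10 q of 9.36. The enrichment was 23.1-fold in ATRA, 15.2-fold in Corin and 19.6-fold in the combination, with −log10 q of 83.0, 42.5 and 60.6. The fragments recovered at the summit were 30 (20.2 to 42.8) in DMSO, 111 (91.3 to 134) in ATRA, 70 (54.6 to 88.4) in Corin and 101 (82.3 to 123) in the combination. The DMSO interval lay below the other 3, and those of ATRA and the combination overlapped. PLAAT4 was thus both longer and richer in fragments at its summit in the drug lists, whereas CD38 was longer and poorer. The CD38 summits lay upstream of the start in the lists with ATRA and downstream in the others, so the counts with ATRA come from another place than that of DMSO. The CD38 summits of DMSO and Corin lay 430 and 435 bases downstream, with 213 (185 to 244) and 130 (109 to 154) fragments.

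The rest of the added length near PLAAT4 came from a region 3371 bases upstream of the start, chr11:63531291-63533437, which held no DMSO peak. Its −log10 q was 4.20 in ATRA, 4.87 in Corin and 21.0 in the combination, and its peak measured 1014, 715 and 2147 bases. Among the 26 regions near the 7 genes that the combination gained against DMSO it had the highest −log10 q. Its sequence around the combination's summit (151 bases, chr11:63531728-63531878, GRCh38, CpG in capitals) is shown for that reason; none of the repeats searched lay in a region of the PLAAT4 window:
PLAAT4 upstream region: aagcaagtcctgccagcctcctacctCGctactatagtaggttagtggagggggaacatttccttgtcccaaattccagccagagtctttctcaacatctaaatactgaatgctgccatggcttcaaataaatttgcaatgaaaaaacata
Regions in the PLAAT4 window numbered 4 in DMSO, 6 in ATRA, 7 in Corin and 10 in the combination, with none lost in any drug list. The strongest peak of the window in each list was not that of PLAAT4 but the one at the start of LGALS12, whose DMSO summit lay 29594 bases upstream, at −log10 q of 121, 226, 85.4 and 141.

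Counted over all 7 windows, regions numbered 45 in DMSO, 54 in ATRA, 53 in Corin and 68 in the combination. ATRA had 11 gained and 2 lost against DMSO, so 19.6% (95% Wilson interval 11.3 to 31.8) of the regions in either list were gained, beside 16.4% of all regions, and 3.57% were lost, beside 7.58%. Corin had 11 gained and 3 lost, shares of 19.6% and 5.36% beside 22.4% and 7.46%. The combination had 26 gained and 3 lost, shares of 36.6% (26.4 to 48.2) and 4.23% (1.45 to 11.7) beside 34.9% and 4.55%. Against ATRA alone it had 19 gained and 5 lost, 26.0% and 6.85% beside 28.4% and 4.97%. Against Corin alone it had 17 gained and 2 lost, 24.3% and 2.86% beside 24.0% and 6.59%. With lists cut to equal length, gained less lost turned from 14 to −3 against ATRA and from 15 to 0 against Corin. The gained shares near the 7 genes thus lay close to those of the whole genome. The lost shares lay below it in each comparison but that against ATRA alone. The background lay inside the Wilson interval wherever one is given. These intervals take regions as independent, although they cluster in 7 windows, so they do not measure the spread between genes or replicates. In genes rather than regions, more were gained than lost in 6 of 7 windows with ATRA (33.6% of all genes), 4 with Corin (45.1%) and 6 in the combination (62.2%). Against ATRA alone and Corin alone, 5 of 7 did in each case (56.9% and 49.7%).

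**Figure D5:**
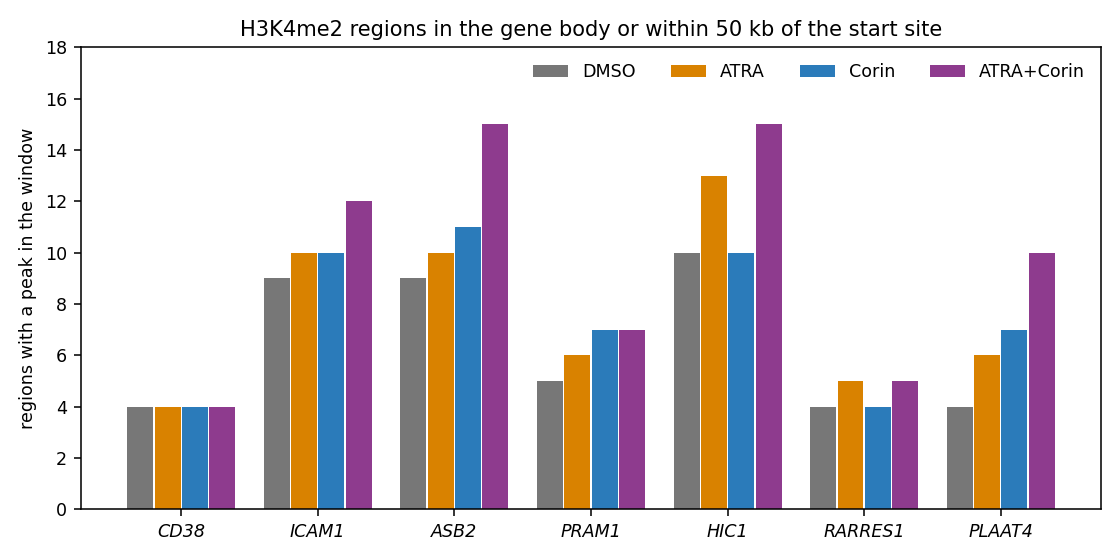
Bars count the regions that hold a peak of each list (DMSO, ATRA, Corin, ATRA with Corin) in the gene body or within 50 kb of the start site of each gene. The count is highest in the combination for ICAM1, ASB2, HIC1 and PLAAT4, equal to another list for PRAM1 and RARRES1, and 4 in every list for CD38.

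By gene, the net gain of the combination over DMSO was 6 for ASB2, 6 for PLAAT4, 5 for HIC1, 3 for ICAM1, 2 for PRAM1, 1 for RARRES1 and 0 for CD38. The order differs from that of start-site length, in which CD38 was second. Of the 26 gained regions, 9 lay in the body of the member gene and 17 outside it, and 1 lay within 1 kb of a start site, that of OTUB2. They were weak: their median −log10 q was 4, compared with 51.9 for the 42 regions that the combination shared with DMSO. In the single-drug lists, 5 of the 26 were present in both, 2 in ATRA only and 5 in Corin only, and 14 were in neither. Of all 27150 regions that the combination gained against DMSO, the counts in the same order were 4144, 3033, 6179 and 13794. The pattern of lists was also close to the background, with 41 of 76 regions (53.9%) present in all 4 lists beside 51.2% of all regions. These counts depend on the threshold for weak peaks, the length of the lists and the window, as the closing section gives.

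The genes whose windows were most like those of ASB2 and PLAAT4, which shared the largest net gain, were sought by Euclidean distance between the covered lengths in the 4 lists. For ASB2 (12.5, 14.3, 16.1 and 22.5 kb in DMSO, ATRA, Corin and the combination) they were TECPR1, SIRPG and NDRG1, at 0.987, 1.11 and 1.37 kb, among 19947 genes with windows apart from its own. For PLAAT4 (8.62, 12.7, 12.3 and 18.9 kb) they were GHRL, GLTP and MAJIN, at 0.991 to 1.02 kb, among 19946.

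Another 20 genes of the retinoid and myeloid differentiation programme were counted in the same way. With ATRA 5 of 20 had a start-site length at least 1.5-fold that of DMSO, beside 3.95% of all genes. With Corin 6 of 20 did so, beside 11.7%, and in the combination 13 of 20, beside 20.2%. Their median ratios were 1.17, 1.26 and 1.76, and those of all genes 1.05, 1.17 and 1.22. Against ATRA alone the combination reached it at 6 of 20, beside 12.3%, and against Corin alone at 4 of 20, beside 4.63%. The largest net gains of regions in the combination were those of TGM2, the tissue transglutaminase (5 regions in DMSO and 22 in the combination), DHRS3, a retinaldehyde reductase (6 and 18), and CYBB, a subunit of the phagocyte oxidase (10 and 18), with TNFSF10, a death ligand, equal to CYBB in net gain (6 and 14). Covered length near the TGM2 start was 2606 bases in DMSO, 6847 in ATRA, 3143 in Corin and 8474 in the combination, an order of lists like that of CD38. The widening of CD38 and PLAAT4 in the ATRA list is thus also seen at genes outside the 7.

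A peak list per treatment shows where enrichment passed the authors' threshold and does not give expression, and no expression value was used here. Within the lists, fewer cells with the mark and less of it per cell cannot be told apart.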

How the data were processed

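Per the labels, each treatment of U-937 cells had 2 libraries of H3K4me2 chromatin immunoprecipitation and 1 of input. Per the submitters' processing notes, Trimmomatic, Bowtie2, Picard and MACS2 were used with build hg38; their versions and settings are not given in the sources used here. Each treatment has 1 pooled list, deposited under a name that follows ENCODE's optimal set of overlapping, reproducible peaks. For every peak the authors deposited a score (a whole number made from the −log10 p, with a cap), a fold enrichment over input at the summit, a −log10 p and a −log10 q. The score was not used in a result.

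Peaks of the 4 lists that overlapped were merged into regions, each counted as present where that list had a peak in it. A region was gained when the first list of a comparison had it and the second did not, and lost in the opposite case. A window was the gene body and 50 kb on each side of the canonical start site of GENCODE release 44, for 19951 protein-coding genes on 22 autosomes and X. Covered length within 5 kb of the start site was chosen after the data were seen, as was the repeat search around peaks. Coordinates are on GRCh38 and count from 1. Summit fragments and relative depth were solved from each peak's fold and −log10 p, where a whole number of fragments met the deposited −log10 p within 0.2% for 98.6 to 99.8% of the peaks of a list; they carry 95% exact Poisson intervals, and shares of regions carry 95% Wilson intervals. Promoter sequences are from RefSeq (GRCh38.p14), where 4 of the 7 genes matched; the ASB2 entry starts 19523 bases from the canonical start and is not shown. The scripts used Python 3.11.15, NumPy 2.4.6, SciPy 1.17.1 and matplotlib 3.10.9 and were tested on simulated data.

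The 7 genes, the 20 other genes and the markers were chosen with earlier results of these data known. Within each window the text names the region over or nearest the start, the strongest region of the lists, and up to 3 gained or lost regions with the highest −log10 q against DMSO. It also names the other genes with the 3 largest net gains in the combination, with one more for a tie, and the 3 genes most like the member with the largest net gain, for both members that shared it. Genes, repeats and second starts described beyond that rule were chosen after their values were seen. The result of 1 marker list is not reported here.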

Additional observations from a re-analysis of the deposited data

How the results depend on the processing

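Start-site lengths depended little on the processing except at 2 kb, where 4 ratios of CD38 and PLAAT4 fell. Region counts depended on the processing a great deal. Alternatives for start-site length were chosen after seeing the data: a minimum −log10 q of 5, lists cut to equal length, and 2 or 10 kb in place of 5 kb. The count of start sites at least 1.5-fold longer moved by over 1.5 times only at 2 kb, from 2 to 1 of 7 for Corin against DMSO and from 2 to 0 for the combination against ATRA. It moved less for the combination against DMSO, from 4 to 5 at the minimum −log10 q and to 3 at 2 kb. For the combination against Corin it moved from 3 to 4 at the minimum −log10 q and at 10 kb and to 2 at 2 kb. At 2 kb the CD38 ratio was 1.55 for ATRA (2.43 at 5 kb), 1.61 for the combination against DMSO (3.33) and 1.33 against Corin (2.02). That of PLAAT4 was 3.89 for the combination against DMSO (6.23 at 5 kb). The other 128 single-gene values moved less. Start sites under a peak numbered 6 of 7 in each list under every alternative run. With the settings used above, the share of all genes was 47.3% in DMSO, 48.1% in ATRA, 38% in Corin and 38% in the combination.

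For regions, net changes (gained less lost) were 9 for ATRA, 8 for Corin and 23 for the combination against DMSO, and 14 and 15 for the combination against ATRA and Corin. With a minimum −log10 q of 5 the last 4 were 3, 11, 4 and 8. With lists cut to equal length, strongest peaks first, they were 5, 5, −3 and 0, so the net gain of the combination over ATRA was reversed. With peaks within 1 kb merged, all 5 in the same order were 4, 5, 10, 6 and 5. With single peaks in place of regions, counted as shared where at least 50% was covered, they were 21 for ATRA, 20 for Corin and 40 for the combination against DMSO, and 29 for it against Corin. With 10 kb in place of 50 kb they were 2, 3 and 12 against DMSO and 9 for the combination over Corin; with 100 kb they were 36 for the combination against DMSO and 24 and 24 against ATRA and Corin. Regions in the windows numbered 18, 20, 21 and 30 (DMSO, ATRA, Corin, combination) with 10 kb and 72, 84, 84 and 108 with 100 kb. The cause was not tested. The other 53 summary values run under these alternatives stayed the same by the rule of 1.5-fold.

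No paired analysis was possible because each treatment has 1 pooled list, which also leaves no spread between replicates and no replicate to leave out. Of the 26 regions gained in the combination, 12 had a −log10 q of 5 or more.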
